A study of Mus musculus with 15 samples.

Results

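Complement and coagulation genes were followed through the 3 diets and 5 tissues of a study of short-term dietary restriction (DR) in mice. The 41 genes were chosen by name as the classical plasma cascade genes and their close regulators, and all 41 were found in the table of counts. C2 and Cfb fell in a single merged locus, which left 40 loci out of 23589 loci with a gene name. The locus that holds C4b also holds its near-identical copy C4a, so it is called C4a-C4b here, and C2-Cfb is named in the same way. Kng1, C1ra, C1s, Mbl1 and Mbl2 each have close paralogs in the mouse, so reads may have been shared between copies. Rows of Serpinc1 and Masp1 that lie on the opposite strand together with another gene were left out.

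The sequenced RNA came from male C57BL/6 mice, from the hippocampus, hypothalamus, liver, epididymal fat and colon (mucosa of the intestine). Mice were fed ad libitum (AL), or received 60% of the AL intake for 1 month from 4 months of age (DR), or were returned to AL feeding for 2 months after the same DR (DR-AL). Tissue was taken at 5 months of age in AL and DR and at 7 months in DR-AL, where the diet and the age cannot be told apart. Each tissue and diet gave 1 library made from the RNA of 5 mice, 15 libraries in all, and no gene was deleted or added in any group.

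With 1 library per tissue and diet there were no replicates of a diet within a tissue. The Z test of the study's methods compares 2 libraries and not the diets, and all intervals given with fold changes are 95% intervals that cover counting error only. A call needed the higher library to lie at least 25% above the lower one, with an adjusted p under 0.05, and "rose" and "fell" are used for such calls. Libraries held between 21767088 and 40500130 counts on named genes, and levels are given as CPM, counts scaled to this total. Levels of different genes are compared only as FPKM, which are also scaled by transcript length. In bulk tissue, fewer cells of a type and less RNA per cell cannot be told apart.

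Coagulation is a chain of serine proteases in plasma that ends with thrombin cutting fibrinogen into fibrin, held in check by antithrombin, protein C, protein S and tissue factor pathway inhibitor, and undone by plasmin. Complement is a related cascade. The classical, lectin and alternative pathways all cut C3, after which C5 is cleaved and C5b assembles with C6, C7, C8 (an alpha, a beta and a gamma chain) and C9 into the membrane attack complex, the pore that lyses target cells. Hepatocytes make most of these plasma proteins, while endothelium, macrophages and adipocytes make some of them locally.

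The clearest pattern in liver lay at the end of the complement cascade. The 4 terminal component genes among the 41, C6, C8a, C8b and C9, were all lower in the DR library than in the AL library. Their median log2 fold change was -1.60, where that of all genes with 10 or more counts on average was 0.08. Of all genes tested in this comparison, 28% were called and 9.93% were called lower. In the DR-AL library the median of the 4 was -0.65 against the same AL library, where 15.8% of all genes were called lower. Because both comparisons use the AL library, they are not independent of each other.

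C6, the first component to join C5b, had 248, 58.7 and 167 CPM in the AL, DR and DR-AL libraries. Its log2 fold change in DR was -2.08 (interval -2.17 to -1.99), and that in DR-AL was -0.57 (-0.63 to -0.52). C9, which polymerises to form the pore, had 589, 157 and 355 CPM in the AL, DR and DR-AL libraries. The DR library was lowest for both genes, and the DR-AL library lay between the other two. C9 changed by -1.91 (-1.96 to -1.85) in DR and by -0.73 (-0.77 to -0.69) in DR-AL on the log2 scale.

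C8b, the beta chain of C8, had 382, 156 and 256 CPM. It fell in both, with a value of -1.29 (-1.35 to -1.23) on the log2 scale in DR, while in DR-AL it was -0.58 (-0.62 to -0.53). C8a, the alpha chain, had 645, 289 and 333 CPM. Its value was -1.16 (-1.20 to -1.12) on the log2 scale in DR, against -0.95 (-0.99 to -0.91) in DR-AL. C8a therefore stayed near its DR level in the DR-AL library. Between DR-AL and DR, a comparison that does not use the AL library, C6 was 2.84-fold, C9 2.26-fold and C8b 1.64-fold higher, all called, while C8a differed by 0.21 on the log2 scale and was not called. In that comparison 16.9% of all genes were called higher.

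The other genes of the membrane attack complex, which are not among the 41, did not all move in this way. They were looked at because of the result above and were chosen after values were seen. Hc, which encodes C5, had 684, 506 and 484 CPM in the AL, DR and DR-AL livers, and it fell by 0.44 in DR and by 0.50 in DR-AL on the log2 scale. C8g, the gamma chain of C8, had 368, 449 and 450 CPM, with log2 fold changes of 0.29 in each comparison, neither of them called. C7 had only 28, 35 and 16 counts in the 3 liver libraries. The fall in DR thus involved the alpha and beta chains of C8 but not its gamma chain in these libraries.

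**Figure D1:**
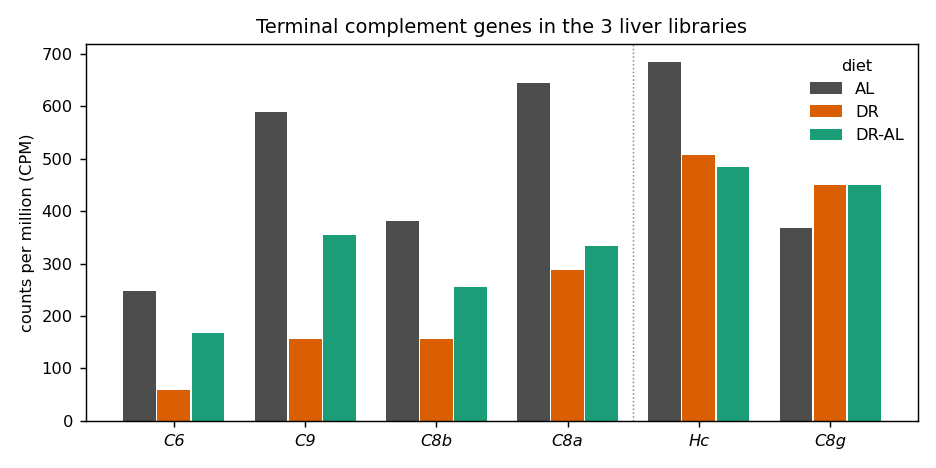
Bars give the level in CPM of 6 genes of the membrane attack complex in the AL, DR and DR-AL liver libraries, 1 library per bar. The 4 members left of the dotted line are lowest in DR (C6 falls from 248 to 58.7 CPM), while C8g, on the right, is lowest in AL at 368 CPM.

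The call of the 4 terminal genes depended on the error allowed between pools of mice. When pools were taken to vary with a coefficient of variation of 0.1, all 4 stayed called in DR, and C8a, C8b and C9 stayed called in DR-AL. The variation was also estimated over the 3 liver libraries without regard to diet, a coefficient of variation of 0.312 that includes any effect of diet. None of the 40 loci was then called in liver, beside 74 of all genes in DR and 70 in DR-AL. Beside this result, 11 hepatocyte marker genes with counts in liver had a median of 0.13 on the log2 scale in DR, 3 called higher and 1 lower, and their summed level was 66603, 70195 and 66118 CPM. Of 5 macrophage markers with a row, 2 rose and 1 fell in DR. The part of cell composition in the terminal genes' change was not tested.

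The 4 terminal genes lie on 2 chromosomes. C8b (chr4:104766317-104804548, GRCm38.p6) and C8a (chr4:104815679-104876487) are neighbours 11130 bases apart. C6 (chr15:4727067-4804045) and C9 (chr15:6445346-6498825) share a chromosome with C7, which lies 183704 bases from C6 and 1381572 bases from C9. The sequences upstream of these 4 genes are shown because all 4 were called lower in DR than in AL liver. They are RefSeq sequences of build GRCm38.p6, up to 250 bases before the annotated start and only those bases that lie outside the gene's own transcripts, in lower case, with capitals for a match to one of 4 short motifs on either strand.

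C6, chr15:4726960-4727066, plus strand: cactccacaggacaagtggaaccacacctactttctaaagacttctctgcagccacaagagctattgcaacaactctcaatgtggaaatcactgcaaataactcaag
C8a, chr4:104876488-104876648, minus strand: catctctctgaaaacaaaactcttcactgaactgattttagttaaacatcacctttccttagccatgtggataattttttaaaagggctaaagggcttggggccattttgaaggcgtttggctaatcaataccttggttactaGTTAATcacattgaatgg
C8b, chr4:104766067-104766316, plus strand: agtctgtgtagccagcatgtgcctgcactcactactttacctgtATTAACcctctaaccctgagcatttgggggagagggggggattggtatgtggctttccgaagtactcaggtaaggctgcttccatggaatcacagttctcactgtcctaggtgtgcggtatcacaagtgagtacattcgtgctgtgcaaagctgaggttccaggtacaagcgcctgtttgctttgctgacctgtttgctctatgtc
C9, chr15:6445096-6445345, plus strand: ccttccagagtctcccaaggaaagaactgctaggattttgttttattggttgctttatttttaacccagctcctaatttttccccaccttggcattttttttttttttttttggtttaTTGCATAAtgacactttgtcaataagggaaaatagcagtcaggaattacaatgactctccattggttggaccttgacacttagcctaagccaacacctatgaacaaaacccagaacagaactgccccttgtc

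The motifs were GTTAAT (part of a site for HNF1, a hepatic transcription factor), CAAAGTC (part of an HNF4 site), TTGCNNAA (part of a C/EBP site) and TATAAA (the TATA box). The capitals mark GTTAAT upstream of C8a, its reverse complement upstream of C8b, and a match to TTGCNNAA upstream of C9. Over windows of 300 bases, 250 before and 50 after the start, GTTAAT occurred in 7.1% of all 32851 promoters of the table and in 6 of the 28 member genes that have one. TTGCNNAA occurred in 10.8% of all promoters and in 8 of the 28. CAAAGTC was found in 4.44% of all promoters and in 1 of the 28, and TATAAA in 13.6% and in 4. None of the 4 motifs matched in the window of C6. A match is a description of the letters and not a binding site.

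Over all 40 loci in liver, 14 were called between DR and AL, which is 35% beside the 28% of all genes. Of these 4 were higher, beside 18.1% of all genes, and 10 lower, beside 9.93%. With DESeq size factors in place of library totals the split was 2 higher and 12 lower, and the share of all called genes that went up moved from 64.5% to 50.6%. Between DR-AL and AL, 24 were called, which is 60% beside 30.9% of all genes. Of these 5 were higher, beside 15.1%, and 19 lower, beside 15.8%. The median log2 fold change of the loci averaging 10 counts or more was -0.13 in DR and -0.30 in DR-AL. The members took 3.17%, 3.06% and 2.56% of the counts of the AL, DR and DR-AL livers.

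**Figure D2:**
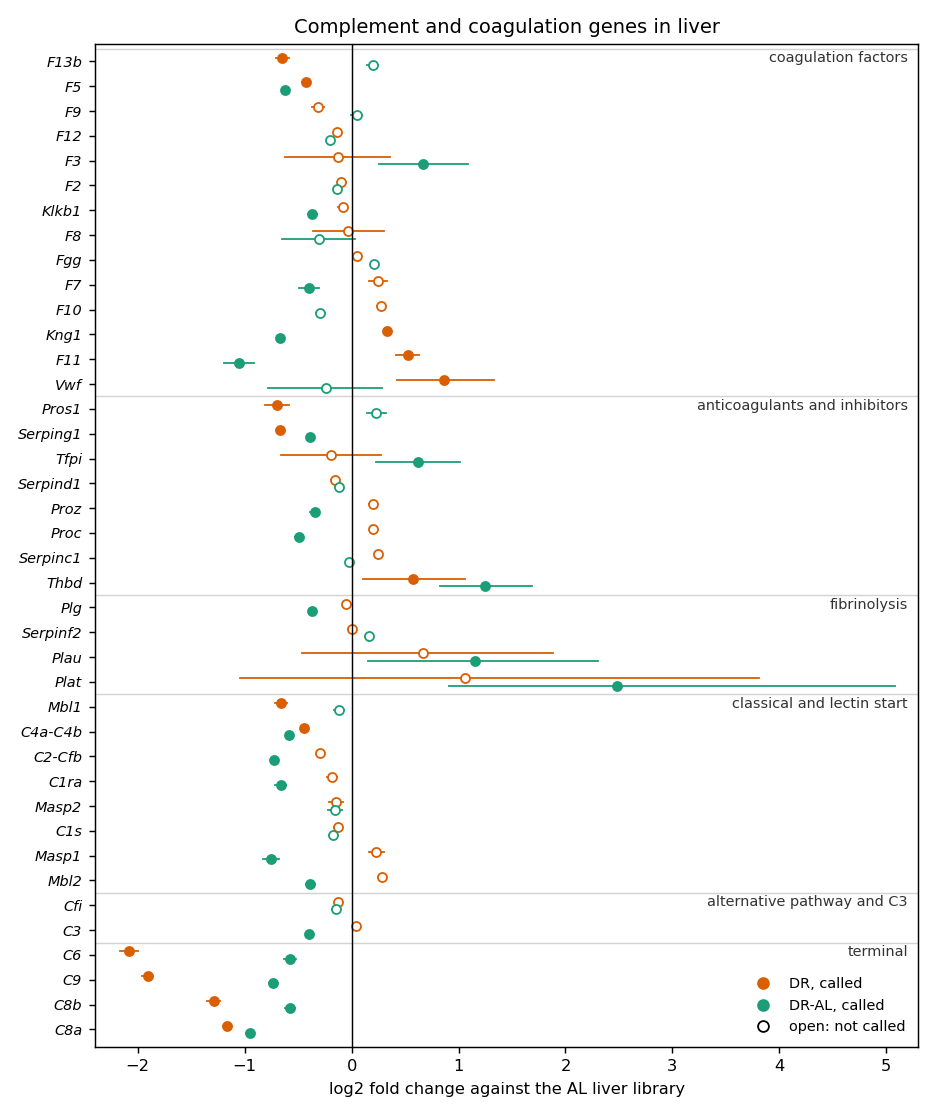
Each row is a locus, grouped by role, with its log2 fold change against the AL liver library in DR (orange) and DR-AL (green). Lines are 95% counting intervals and filled points are called, and the 4 terminal genes at the bottom lie farthest to the left, from -2.08 to -1.16 in DR.

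Fgg and F2, which encode a chain of fibrinogen and prothrombin, were steady in the DR liver. In AL liver Fgg, the gamma chain of fibrinogen, had the highest FPKM of all members at 3154, followed by Kng1, which rose in DR, at 2789, C3 at 2185, Serpinc1 at 2068 and F2, which encodes prothrombin, at 1961. Fgg had 2580, 2680 and 2980 CPM in AL, DR and DR-AL, and F2 had 1930, 1803 and 1754 CPM. Neither gene was called in any liver comparison. The other fibrinogen chains, Fga and Fgb, which are no members, changed by 0.08 and 0.14 on the log2 scale in DR and were not called either.

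Of the 14 coagulation factors, 2 fell in DR, beside 9.93% of all genes, and 3 (F11, Kng1 and Vwf) rose, beside 18.1%. F13b, the carrier subunit of the fibrin-crosslinking factor XIII, had 221, 141 and 254 CPM and fell by 0.65 on the log2 scale in DR. F5, the cofactor of factor Xa, had 650, 483 and 423 CPM and fell by 0.43 in DR and by 0.62 in DR-AL. In the deposited FPKM, however, F5 was 320, 307 and 196 in the AL, DR and DR-AL livers, so that its fall in DR appears in the counts and not in the FPKM. F13b was lowest in DR and F5 was lowest in DR-AL.

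In the contact system, which starts clotting on charged surfaces, F11 and Kng1 were higher in DR and lower in DR-AL than in AL, while Klkb1 and F12 were not. F11, the protease that activates factor IX, had 50.9, 73.2 and 24.5 CPM, so that it rose by 0.52 (0.42 to 0.63) on the log2 scale in DR, and its DR-AL value was -1.05 (-1.20 to -0.91). Kng1, the kininogen that yields bradykinin, had 2975, 3746 and 1868 CPM, and rose by 0.33 in DR and fell by 0.67 in DR-AL. The rise of Kng1 was no longer called with DESeq size factors, where its log2 fold change was 0.24. Klkb1, plasma prekallikrein, had 408, 386 and 317 CPM and fell by 0.37 in DR-AL only among the comparisons with AL. F12 had 629, 574 and 548 CPM and was not called in either.

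Between DR-AL and DR, 23 of the 40 loci were called in liver, which is 57.5% beside 40.9% of all genes. Of these 11 were higher, beside 16.9%, and 12 lower, beside 24%. The members with the largest falls were F11 at -1.58 on the log2 scale, Vwf at -1.11 from a mean under 100 counts, Kng1, which was 2.01-fold lower, and Masp1 at -0.99. Pros1 at 0.93 and F13b at 0.84 rose along with C6, C9 and C8b.

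Among 8 anticoagulants and inhibitors, Pros1 and Serping1 fell in DR and Thbd rose. Pros1, protein S, had 73.1, 45.2 and 85.8 CPM, a log2 fold change of -0.69 (-0.81 to -0.58) in DR and of 0.23 in DR-AL, which was not called. Serping1, the C1 inhibitor that restrains both complement and the contact system, had 988, 619 and 757 CPM and fell by 0.67 in DR and by 0.38 in DR-AL. Serpinc1, antithrombin, had 2228, 2647 and 2194 CPM and was not called, and Proc, protein C, had 643, 741 and 457 CPM and fell by 0.49 in DR-AL. The inhibitors thus did not move as 1 group.

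Thbd and Tfpi are made by endothelium and were low in liver. Thbd, the thrombin receptor that turns on protein C, had 67, 88 and 158 counts in the AL, DR and DR-AL livers, and it rose by 0.57 (0.10 to 1.06) on the log2 scale in DR and was 2.37-fold higher in DR-AL. Tfpi, tissue factor pathway inhibitor, had 92, 71 and 140 counts and rose by 0.62 (0.23 to 1.02) in DR-AL. The DR value of Thbd was 0.49 with DESeq size factors and 0.27 in FPKM and was then not called. Of 6 endothelial markers, 3 rose in the DR liver and none was called in the DR-AL liver, with summed levels of 54.3, 65.9 and 58.8 CPM, and their part in the values of Thbd, Tfpi and Vwf was not tested. Of 5 adipocyte markers, 2 rose in the DR-AL liver, with summed levels of 10.2, 3.22 and 75.03 CPM in AL, DR and DR-AL, and their part was not tested. None of the 4 fibrinolysis genes was called in DR. Plg, plasminogen, had 2453, 2368 and 1900 CPM and fell by 0.37 in DR-AL.

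At the start of the classical and lectin pathways, 2 of 8 loci fell in DR, beside 9.93% of all genes, and 5 fell in DR-AL, beside 15.8%, and none rose. Mbl1, a mannose-binding lectin that recognises microbial sugars, had 286, 181 and 263 CPM and fell by 0.66 in DR. Its paralog Mbl2 had 394, 480 and 302 CPM, with a log2 fold change of 0.28 in DR that was not called and a fall of 0.39 in DR-AL. These lectins therefore stood in different orders over the 3 libraries. C4a-C4b had 898, 660 and 600 CPM and fell by 0.44 in DR and 0.58 in DR-AL.

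Masp1, a protease bound to these lectins, had 149, 175 and 88.1 CPM and fell by 0.76 (interval -0.83 to -0.68 on the log2 scale) in DR-AL. C2-Cfb, which joins the proteases of the classical and alternative C3 convertases, had 1335, 1088 and 808 CPM and fell by 0.73 in DR-AL. C1ra, a protease of the C1 complex, had 351, 309 and 222 CPM and fell by 0.66. C1s, its partner, had 481, 441 and 427 CPM and was not called. C3, the central component, had 6879, 7082 and 5223 CPM, a log2 fold change of 0.04 in DR, and it fell by 0.40 in DR-AL.

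The remaining members are given here so that each of the 40 loci is accounted for in liver, and they were chosen after values were seen. F7, the protease that tissue factor activates, and Proz, the cofactor of an inhibitor of factor Xa, were not called in DR and fell in DR-AL, F7 by 0.40 on the log2 scale. F8, F9, F10, Serpind1, Serpinf2 (antiplasmin), Cfi (factor I, which cleaves C3b and C4b) and Masp2 were called in neither comparison with AL, with values between -0.31 (F9 in DR) and 0.27 (F10 in DR). F3, Plat and Plau rose in DR-AL from low levels, with 82, 66 and 129 counts for F3, 3, 6 and 19 for Plat, and 12, 17 and 27 for Plau. The calls of Plat and Plau rest on under 30 counts in any library.

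Of 52 other complement and coagulation genes chosen by name, 51 had a row, and 6 rose and 7 fell in the DR liver, beside 18.1% and 9.93% of all genes. In DR-AL, 9 rose and 9 fell, beside 15.1% and 15.8%. The medians of the 42 with a mean of at least 10 counts were 0.04 and -0.02 on the log2 scale. Colec10, a collectin of the lectin pathway, had 13.5, 17.5 and 27.4 CPM and rose by 0.38 in DR and by 1.02 in DR-AL.

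Liver was by far the main source of these transcripts. Of the 40 loci, 31 had their highest CPM in liver under every diet. Vwf, Tfpi, Thbd and Plau were highest in fat under every diet, and F3, F8, Pros1, Plat and C4a-C4b changed their highest tissue with the diet. Tissues were tested with edgeR's quasi-likelihood test over all 15 libraries, 3 per tissue, with diet as a term. With a minimum fold change of 2 and an adjusted p under 0.05, 34 of 40 loci were higher in liver than in the mean of the other tissues, beside 22.6% of all 17476 genes, and 3 were lower, beside 31.4%, where 54% of all genes were called in either direction.

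The median log2 difference between liver and the other tissues was 10.33 over the 40 loci. Of the terminal genes, C8a, C9 and C8b lay above this median and C6 below it. C8a differed by 13.58 ± 1.06 (SE, adjusted p 5.57e-07), C9 by 12.21 ± 1.04 (adjusted p 1.06e-06), C8b by 11.53 ± 0.64 (adjusted p 3.81e-08) and C6 by 9.90 ± 0.32 (adjusted p 1.57e-09). Set against single tissues, 34 loci were higher in liver than in fat and 6 lower (beside 52.6% of all genes called, 18.2% higher and 34.5% lower). Against the colon the counts were 37 and 1 (beside 47.6%, 24.1% and 23.6%). Against the hypothalamus they were 35 and 2 (beside 63.3%, 27.2% and 36.2%), and against the hippocampus 35 and 3 (beside 62.4%, 27.7% and 34.7%). The 6 loci lower in liver than in fat were F3, Vwf, Tfpi, Thbd, Plat and Plau. The 3 loci lower in liver than in the mean of the other tissues were F3 (tissue factor), Vwf and Plat (tissue plasminogen activator), with log2 differences of -3.01, -1.22 and -4.18.

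**Figure D3:**
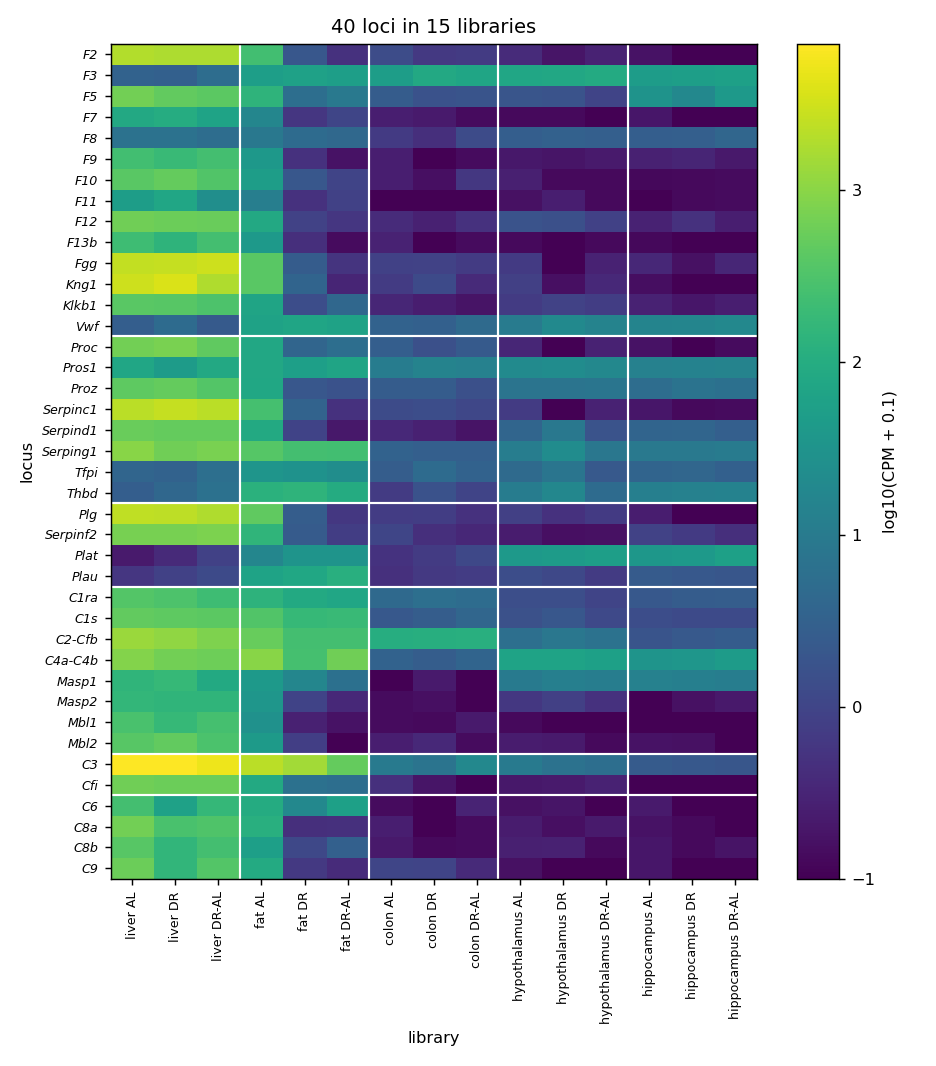
Each cell is the level of a locus (rows, grouped by role) in a library (columns, 3 diets in each of 5 tissues), as log10 of CPM plus 0.1. The liver columns are brightest for 31 of the 40 loci, and the AL fat column is brighter than the DR and DR-AL fat columns for most of the same rows.

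In fat, hepatocyte markers were higher in the AL library than in the DR and DR-AL libraries, and their part in the members' values was not tested. Of 12 hepatocyte markers, Alb was listed at 0 in every library. The other 11 had a median level in AL fat of 12.2% of AL liver, against 0.133% in DR fat and 0.0219% in DR-AL fat. Cyp2e1 was the exception among them, at 55.2%, 43.0% and 45.8%. Over the 34 members with at least 100 counts in AL liver, the median levels in fat were 17.9%, 0.438% and 0.704% of liver under AL, DR and DR-AL. Their share of all counts was 0.819%, 0.312% and 0.245% in the 3 fat libraries when all 40 loci are taken.

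The members in fat were split by their level in AL fat. In 25 of the 34, the AL fat level lay within the range of the hepatocyte markers without Cyp2e1, 5.37% to 29.8% of AL liver, and the medians of these 25 were 15.9%, 0.335% and 0.0867%. The other 9 lay above that range, with medians of 39.6%, 39.0% and 34.9% of liver. The 9 are F8, Pros1, Serping1, C1ra, C1s, C2-Cfb, C3, C4a-C4b and C6. No member lay below the range. Its upper end was set by Cps1 alone, the next marker being Tat at 15.9%. Masp1, among the 25 at 28.5% in AL, kept 9.70% and 6.80% of liver in DR and DR-AL.

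**Figure D4:**
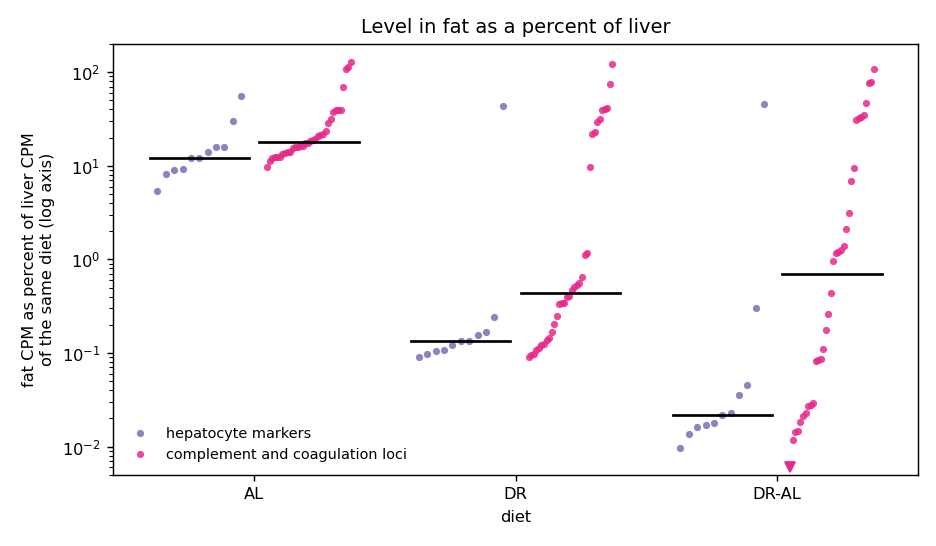
Points give the CPM in fat as a percent of the CPM in liver of the same diet on a log axis, for 11 hepatocyte markers and 34 loci with at least 100 counts in AL liver, and black lines are medians. The hepatocyte markers have medians of 12.2% (AL), 0.133% (DR) and 0.0219% (DR-AL), and most loci drop with them, while 9 lie above the other loci in AL fat, between 31.8% and 128%. The triangle marks Mbl2, which had 0 counts in DR-AL fat.

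Between DR and AL fat, 35 of 40 loci were called, beside 45.6% of all genes. Of these 1 was higher, beside 35.3%, and 34 lower, beside 10.4%. Between DR-AL and AL fat, 37 were called, beside 57.9%, with 2 higher, beside 46.1%, and 35 lower, beside 11.9%. Between DR-AL and DR fat, 22 were called, beside 51.6%, with 7 higher, beside 38.4%, and 15 lower, beside 13.3%. In all genes averaging 10 counts or more, the median log2 fold change in DR fat was 0.24 with library totals and 0.05 with DESeq size factors, and in DR-AL fat 0.34 and 0.00. The largest falls belonged to genes with the hepatocyte pattern. Plg had 463, 2.54 and 0.512 CPM in the AL, DR and DR-AL fat libraries, Fgg had 406, 2.45 and 0.439, and Kng1 had 402, 3.59 and 0.219.

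Other genes of this kind were F2 with 239, 2.01 and 0.402 CPM, Serpinc1 with 268, 3.33 and 0.402, and F12 with 85.9, 0.788 and 0.475. F9 had 39.0, 0.394 and 0.0731 CPM, F13b had 40.5, 0.350 and 0.0366, and Serpind1 had 88.2, 0.832 and 0.110. C8a had 112, 0.350 and 0.366 CPM, C9 had 90.9, 0.526 and 0.292, Mbl1 had 28.1, 0.175 and 0.0731, and Mbl2 had 43.9 and 0.701 CPM and then no count. In each of these 13 genes the AL library was the high one, as it was for the hepatocyte markers. A step chosen after the values were seen took 12.2% of the AL liver level, the markers' median, off every gene in AL fat. Serpinc1, Mbl1 and Mbl2 were then left with 0 counts there, and Plg, Fgg, Kng1, C8a and C9 were still called lower in DR. In AL fat the latter genes lay between 13.5% (Kng1) and 18.9% (Plg) of AL liver. The markers without Cyp2e1 ranged from 5.37% to 29.8%. A single share does not match every marker, so no conclusion is drawn from the calls that remain. Over all 40 loci, 27 were lower, 7 not called and 6 higher in DR after this step. Beside them, 8919 of all genes were called, and 74.5% of those went up. The 6 were Plat, those left with 0 counts in AL fat, F10, which went from -4.65 to 2.17 on the log2 scale, and Proc, which went from -4.42 to 0.78.

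Members that fat held at a substantial level under DR and DR-AL were mostly early complement genes and endothelial clotting genes. C3 had 2185, 1538 and 497 CPM in AL, DR and DR-AL fat, and C4a-C4b had 977, 257 and 641 CPM. Without the liver share, C3 changed by 0.01 on the log2 scale in DR, which was not called, and by -1.62 in DR-AL, and C4a-C4b by -1.94 and -0.62. C3 was thus lowest in DR-AL fat and C4a-C4b lowest in DR fat. Between DR-AL and DR, which does not use the AL fat library, C3 fell by 1.63 and C4a-C4b rose by 1.32.

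Among the terminal members, C6 was the gene that stayed in fat. It had 98.3, 18.4 and 58.2 CPM in AL, DR and DR-AL fat, which was 39.6%, 31.3% and 34.9% of the liver level of the same diet. Without the liver share its log2 fold changes were -2.07 in DR and -0.41 in DR-AL, and between DR-AL and DR it rose by 1.66. C8b, in contrast, had 1417, 23 and 82 counts in fat.

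C2-Cfb had 13686, 5638 and 6803 counts in AL, DR and DR-AL fat. C1s had 338, 180 and 198 CPM, and C1ra had 139, 89.7 and 74.0 CPM. Serping1 had 373, 256 and 244 CPM and Masp1 had 42.5, 17.0 and 5.99. All 5 were highest in AL fat. Without the liver share, the DR falls of C1ra and Serping1 were no longer called, at -0.28 and -0.16, while those of C2-Cfb and C1s were, at -0.72 and -0.82.

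Among the clotting genes of vessels and stroma, some were level in CPM and others fell. Vwf had 61.0, 69.8 and 62.9 CPM in AL, DR and DR-AL fat, F3 had 52.3, 58.6 and 51.4, and Pros1 had 82.4, 55.0 and 66.7. Thbd had 123, 144 and 95.4 CPM, Tfpi had 33.8, 29.5 and 23.7, and F8 had 8.58, 4.86 and 4.17. The DR values of Vwf, F3 and Thbd differed from AL by 0.16 to 0.22 on the log2 scale, close to the median of all genes in fat, and were not called. In FPKM, F3 had 20.9, 14.6 and 6.75 in AL, DR and DR-AL fat, and Vwf had 4.61, 3.07 and 1.57. Thbd had an FPKM of 24.7, 17.1 and 6.15, so that the order of these genes depended on the scale. The median of all genes in FPKM was -0.34 in DR and -0.83 in DR-AL. With DESeq size factors F3 and Pros1 were called lower in DR-AL, at -0.36 and -0.64, and Tfpi in DR, at -0.38. F8 fell by 0.82 in DR and by 1.04 in DR-AL, Pros1 fell by 0.58 in DR, and Tfpi and Thbd fell by 0.51 and 0.37 in DR-AL. Of 6 endothelial markers, 3 fell in DR fat and 2 rose in DR-AL fat. Their summed levels were 883, 669 and 966 CPM in AL, DR and DR-AL, and their part in these genes' values was not tested.

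The plasminogen activators were the members that rose. Plat had 17.1, 32.2 and 32.7 CPM and rose by 0.92 in DR and by 0.93 in DR-AL. Plau, urokinase, had 65.6, 76.7 and 113 CPM and rose by 0.78 in DR-AL. In FPKM, where the median of all genes was -0.83 in DR-AL, the values of Plat and Plau were -0.57 and -0.77, so their direction depended on the scale. Testis and epididymis transcripts were also found in fat. The summed level of 5 epididymis markers was 846, 2927 and 4601 CPM in AL, DR and DR-AL fat. The single markers did not all follow this sum. Between DR-AL and DR fat 1 of them was called higher and 4 lower, with a median of -4.88 on the log2 scale. The summed level of 5 testis germ cell markers was 3.24 CPM in AL fat, 428 CPM in DR fat and 2137 CPM in DR-AL fat, and the part of both lists in these differences was not tested. With the AL fat library left out, the same counts of 34 loci higher and 6 lower in liver than in fat were found, and the median difference was 8.15 instead of 6.16 on the log2 scale.

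In the hypothalamus members were called more often than genes in general, in both comparisons. Between DR and AL, 12 of 40 loci were called, which is 30% beside 7.06% of all genes. Of these 7 were higher, beside 4.33%, and 5 lower, beside 2.73%. Between DR-AL and AL, 12 were called, beside 15.1%, with 1 higher, beside 6.06%, and 11 lower, beside 9.03%. With DESeq size factors the latter split was 3 higher and 11 lower, where 46.9% of the 2880 genes called went up. The median of the 23 loci averaging 10 counts or more was 0.17 in DR and -0.38 in DR-AL on the log2 scale, beside 0.01 and -0.03 for all genes.

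Of the 12 loci called in the DR hypothalamus, 6 were anticoagulants and inhibitors, and of the 12 called in DR-AL, 5 were. In DR 4 of the 6 rose and 2 fell, and in DR-AL all 5 fell. The 2 that fell in DR were Serpinc1, with 0.607 CPM in AL and 0 in DR, and Proc, with 0.236 and 0. Serping1 had 11.2, 23.1 and 8.43 CPM in the AL, DR and DR-AL libraries. It rose by 1.05 (0.86 to 1.24) on the log2 scale in DR, and its DR-AL value was -0.41 (-0.65 to -0.17). Serpind1, heparin cofactor II, an inhibitor of thrombin, had 109, 278 and 52 counts and changed by 1.21 (0.88 to 1.54) and -1.13 (-1.65 to -0.65). Thbd had 317, 572 and 151 counts and changed by 0.71 (0.51 to 0.91) and -1.14 (-1.43 to -0.86). For these 3 genes the DR library was the highest and the DR-AL library the lowest.

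Tfpi had 136, 245 and 68 counts. It rose by 0.71 (0.40 to 1.02) in DR, its DR-AL value was -1.07 (-1.51 to -0.64), and it followed the same order. Vwf, which carries factor VIII and tethers platelets, had 10.3, 19.9 and 14.8 CPM and rose by 0.94 in DR and by 0.52 in DR-AL. Unlike Serping1, Serpind1, Thbd and Tfpi, Vwf was above AL in both. With the variation estimated over the 3 hypothalamus libraries, a coefficient of variation of 0.124, Serping1 and Serpind1 stayed called in DR and Thbd stayed called in DR-AL. Of 6 endothelial markers, 2 rose in DR and 2 in DR-AL, with summed levels of 72.5, 83.9 and 87.8 CPM, and their part in the values of Vwf, Thbd and Tfpi was not tested.

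Of the 6 members with the highest CPM in the hypothalamus, Vwf and Serping1 were called and the other four were not. F3 had 74.9, 82.5 and 91.7 CPM, C4a-C4b had 65.2, 65.1 and 57.8, Plat had 42.4, 45.3 and 52.4, and Pros1 had 20.5, 23.0 and 18.4. With DESeq size factors F3 and Plat were called higher in DR-AL, at 0.32 and 0.34 on the log2 scale. The calls of Fgg, Serpinc1, Kng1 and Proc as lower in DR rested on 7 to 22 counts in AL and 0 to 2 in DR. Beside them, 8 of 12 hepatocyte markers were also called lower in the DR hypothalamus, with summed levels of 16.3, 4.76 and 10.6 CPM in AL, DR and DR-AL, and all 6 colon epithelium markers were called lower in DR and in DR-AL, with 19.9, 3.02 and 2.31 CPM. The part of these lists was not tested. C3 had 9.44, 6.69 and 5.51 CPM and fell by 0.50 and 0.77.

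**Figure D5:**
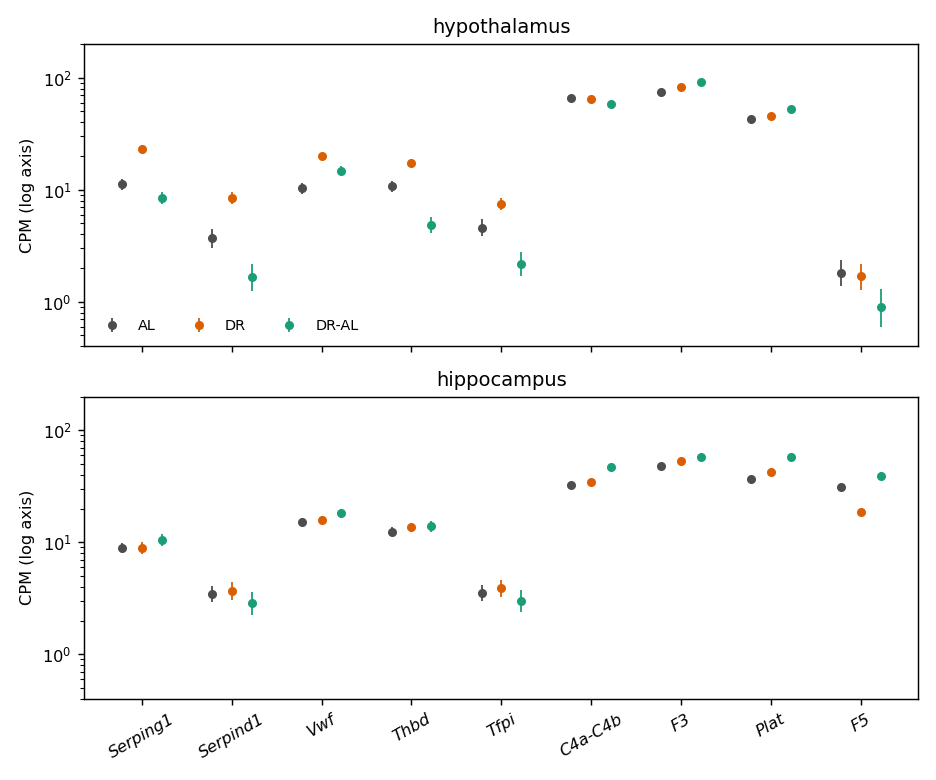
Points give the CPM of 9 loci in the AL, DR and DR-AL libraries of hypothalamus (top) and hippocampus (bottom) on a log axis, with 95% Poisson intervals. In the hypothalamus Serping1, Serpind1, Thbd and Tfpi are highest in DR and lowest in DR-AL (Serping1 at 11.2, 23.1 and 8.43 CPM), while in the hippocampus F5 is lowest in DR at 18.6 CPM.

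The hippocampus showed fewer calls. Between DR and AL, 6 of 38 loci tested were called, beside 4.04% of all genes, with 1 higher, beside 1.37%, and 5 lower, beside 2.67%, and 4 of the 6 had a mean under 10 counts. Between DR-AL and AL, 7 were called, beside 6.17%, with 5 higher, beside 4%, and 2 lower, beside 2.17%, and 3 of them had a mean under 10 counts. F5 was higher there than in any other tissue but liver and AL fat. It had 31.1, 18.6 and 39.5 CPM in AL, DR and DR-AL, with a log2 fold change of -0.74 (-0.89 to -0.60) in DR, and it rose by 0.34 (0.22 to 0.46) in DR-AL. The DR value stayed called with the variation estimated over the 3 hippocampus libraries, a coefficient of variation of 0.0701, and was no longer called at a coefficient of variation of 0.1.

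Plat, the tissue plasminogen activator, had 36.6, 42.0 and 57.4 CPM in the hippocampus and rose by 0.65 in DR-AL. C4a-C4b had 32.5, 34.8 and 46.7 CPM and rose by 0.52 in DR-AL. F3 had 48.1, 53.3 and 57.9 CPM, Vwf had 15.3, 15.8 and 18.2, and Pros1 had 13.5, 14.1 and 14.5, and none of these 3 was called. In Plat, C4a-C4b and F3 the DR-AL library was the highest.

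In the colon the members took only 0.0213% to 0.0253% of the counts. Between DR and AL, 14 of 39 loci tested were called, beside 19.7% of all genes, with 5 higher, beside 9.05%, and 9 lower, beside 10.6%, but only 4 of the 14 had a mean of at least 100 counts. Between DR-AL and AL, 10 were called, beside 14.4%, with 5 higher, beside 5.84%, and 5 lower, beside 8.51%. Such a mean was found in 2 of the 10. C2-Cfb had 105, 110 and 113 CPM in AL, DR and DR-AL and was not called. F3, tissue factor, the trigger of clotting, had 50.1, 84.5 and 71.7 CPM and rose by 0.75 (0.66 to 0.85) in DR and by 0.52 (0.41 to 0.62) in DR-AL. The AL colon library was thus the lowest for F3.

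Tfpi, the inhibitor of tissue factor, had 69, 164 and 83 counts in the colon and rose by 0.91 (0.50 to 1.34) in DR. Pros1 had 10.8, 14.5 and 13.4 CPM and rose by 0.42 in DR. C3 had 9.79, 7.33 and 18.0 CPM, a fall of 0.42 in DR and a rise of 0.87 (0.65 to 1.10) in DR-AL. C1ra had 4.52, 5.80 and 5.19 CPM and was not called. With a coefficient of variation of 0.1, F3 and Tfpi were the members still called in DR and C3 the one still called in DR-AL.

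Over the 5 tissues together, diets were tested with the quasi-likelihood test of edgeR on all 15 libraries, tissue being a term. No source used here says that the tissues of a diet came from different mice, so the tissues are not counted as independent animals. None of the 40 loci was called in DR or in DR-AL, beside 2 and 1 of all 17476 genes (0.0114% and 0.00572%). DESeq2 called 0 of the loci as well. In the edgeR test, 9 and 10 loci had an unadjusted p under 0.05, beside 657 and 862 of all genes. The smallest adjusted p of a member was 0.447 in DR, for C6, which had a log2 fold change of -2.29 ± 0.43 (SE) and was lower in 4 of 5 tissues. In DR-AL the smallest was 0.852. C6 was nearly absent outside liver and fat. It had 0.0377 and 0 CPM in the AL and DR colon and 0.123 and 0 CPM in the hippocampus. Almost no counts thus lie behind the direction in those tissues. The median log2 fold changes of the 40 loci were -1.77 and -1.96, and they include the AL fat library described above.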

How the data were processed

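The authors isolated RNA from each tissue, pooled it from 5 mice per diet, depleted ribosomal RNA and sequenced stranded libraries from both ends (75 bases). Per their methods, reads were filtered at a quality score of 30, aligned to mm10 with Strand software and stripped of duplicates. The submitters' processing notes name DESeq2 and mm9. The deposited read count of each locus is not normalized, and the FPKM values were deposited by the authors beside it. Positions in the table overlapped GRCm38 for 10 of 41 members, so RefSeq positions of GRCm38.p6 are given. All 30 value columns were used.

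Members, roles and lists were chosen with earlier results of these data known. Counts on named loci were compared with the Z test of the methods (square root of the share, Poisson variance, Benjamini-Hochberg over all genes with at least 1 count in the tissue). Log2 fold changes add 0.5 to scaled counts, and ratio intervals are exact Clopper-Pearson intervals. Tissues, and diets over tissues, were tested with edgeR 4.0.16 (TMM, filterByExpr). Alternatives used DESeq2 1.42.0 (R 4.3.3), DESeq size factors, other filters and wider errors between pools. Values are printed for the 10 called members with the largest changes and a mean of at least 100 counts in liver, the 6 most abundant members and large changes elsewhere, and members above 5% of AL liver in fat. Vwf, F12, Klkb1, Plg, Fgg, F2, Proc, Serpinc1, Mbl2, C1s and C3 in liver, C8b in fat and C3 in the hypothalamus are printed beside these and were chosen after values were seen. In simulated data, the Z test found 157 of 200 genes with a fold change of 2 in liver, with 12 false calls among 16943 genes. Those counts were drawn with Poisson error only, so the false calls leave out any variation between pools. In a separate simulation of liver against the other tissues, with a larger fold change, edgeR found 194 of 200. One gene that the rule for printed genes would include is not reported here.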

Additional observations from a re-analysis of the deposited data

Results flagged for a closer look

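Fat was left out of this search, and a mean of at least 100 counts was needed in both tissues. In 7 cases a member was called in opposite directions in liver and in the colon, hypothalamus or hippocampus under the same comparison. The difference between the tissues was not tested, with 1 library per tissue and diet. In DR against AL, Pros1 had a log2 fold change of 0.42 in the colon and -0.69 in liver. Serping1 had 1.05 in the hypothalamus and -0.67 in liver in the same comparison. In DR-AL against AL, C3 had 0.87 in the colon and -0.40 in liver. Thbd had -1.14 in the hypothalamus and was 2.37-fold higher in liver, and Tfpi had -1.07 in the hypothalamus and 0.62 in liver. In the hippocampus, F5 had 0.34 where liver had -0.62, and C4a-C4b had 0.52 where liver had -0.58.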

How the results depend on the processing

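No paired analysis was possible because the labels carry no replicate numbers shared between groups, and the fits over tissues took diet or tissue as a term instead. In 1 alternative, pools were taken to vary with a coefficient of variation of 0.1. The loci called in liver then numbered 9 in DR and 12 in DR-AL against AL, beside 1540 and 1845 of all genes. Those in the colon numbered 2 and 1, beside 777 and 339, and those in the hypothalamus 6 and 3, beside 233 and 667. In the hippocampus 0 and 0 were called, beside only 8 and 55 of all genes. In another, the variation was estimated over the 3 libraries of a tissue. Liver then had 0 in DR, DR-AL and DR-AL against DR, beside 74, 70 and 148 of all genes. Fat had 0, 15 and 0, beside 1, 1034 and 1. The colon had 0 and 0, beside 235 and 60. The hypothalamus had 5 and 1, beside 164 and 426, and the hippocampus 1 and 1, beside 38 and 143. This estimate takes up any effect of diet, which is part of its construction. At a fold change of 2, liver had 4, 4 and 6, beside 1459, 1463 and 2597 of all genes. The colon had 8 and 6, beside 1057 and 744. The hypothalamus had 6 in DR, beside 467, and the hippocampus 3 in DR-AL, beside 304. In FPKM the colon had 5 in DR, beside 2847 of all genes. The hypothalamus had 6 and 4, beside 640 and 1722, and the hippocampus 1 and 3, beside 682 and 1343. With a mean of at least 10 counts, 9 were called in the colon in DR, beside 3343 of all genes. In the hippocampus 2 and 4 were called, beside 636 and 1051. These counts were lower because fewer genes were tested.

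Among 562 single-gene values, 443 kept direction and call, 112 kept direction and lost the call, and 7 changed sign or became 0. With the liver share taken off AL fat, an alternative chosen after seeing the data, C3 became 0.010 and Mbl1 3.26 in DR, and Serpinc1 became 4.37, Mbl1 2.19 and Mbl2 0 in DR-AL, where these last 3 genes were left with 0 counts in AL fat by construction. In FPKM, Plat became -0.57 and Plau -0.77 in DR-AL fat, and the cause was not tested. The tissue comparison gave 37 loci under each alternative, leave-one-out included, and the diet comparison over tissues gave 0. In the colon, hypothalamus and hippocampus 5, 3 and 4 of the loci called in DR had means under 10 counts, where counting error is large.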
